A study of Homo sapiens with 30 samples.

Results

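The 38 genes described here are needed for the passage from G2 into mitosis and for the division that follows. They were chosen by name, from CDK1 to FOXM1, as rows of the deposited gene-level count table, and all 38 were found among its 58735 genes. All 38 also passed the low-count filter that left 18296 genes for testing. The table holds 30 RNA-seq libraries, 3 in each of 10 groups. Every library was made from LNCaP, an androgen-dependent human prostate cancer cell line, that carried a short hairpin RNA against mTOR (shmTOR). An inducible system then supplied 1 of 5 inserts, which name the lines. EV received an empty vector and WT the unaltered mTOR protein. NES received mTOR carrying a nuclear export signal, and NLS mTOR carrying a signal for import into the nucleus. NLSKD received the NLS form with the kinase-dead D2357E change. All cells first spent 48 h with 2% serum stripped of androgens by charcoal. They then received either 0.1% ethanol as the vehicle or 10 nM of the synthetic androgen R1881 for 24 h. All 10 groups therefore share the knockdown and the androgen withdrawal, and no group of unmodified cells entered the comparisons. Whether a line was 1 clone or a mixed population is not given in the sources used here.

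As background, entry into mitosis is driven by the kinase CDK1 bound to cyclin B, and the genes for both are transcribed in a wave that peaks in G2 and M phase. The same wave carries the kinases, motors and kinetochore proteins that build the spindle, and the ubiquitin enzymes that end mitosis. It is restrained in resting cells by the DREAM complex and driven in dividing cells by MYBL2 and FOXM1, so summed transcript levels of these genes are widely read as a measure of how many cells in a culture are dividing. In a bulk library fewer dividing cells and less of each transcript per dividing cell cannot be told apart. mTOR is a growth kinase best known for its work in the cytoplasm, and the tagged proteins ask whether its place in the cell matters for transcription in these androgen-dependent cells.

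Libraries held 21435364 to 61762468 counts assigned to genes. The largest was number 1 of NES under R1881. Transcripts of the mitochondrial genome took 3.9 to 11.7% of counts and over 9% in 5 libraries, of which 4 carried replicate number 2. MTOR itself, with 20.3 to 73.9 CPM (counts brought to a common library size with TMM factors) in the 6 EV libraries and 596 to 7593 CPM in the 24 rescued ones, separated EV from the other lines. The NES line held the most, with means of 5252 CPM under vehicle and 4296 CPM under R1881, and counts cannot separate the construct from the endogenous gene. All 10 luminal prostate markers were detected in every library, among them HOXB13 at 313 to 746 CPM. Of the basal markers KRT5 was at 0 in 27 libraries, TP63 in 29 and KRT14 in 9, with at most 2.85 CPM for KRT14. Of the leukocyte markers CD3E was at 0 in all 30, PTPRC in 21 and CD68 in 15, with at most 0.351 CPM. The neuroendocrine marker CHGA was at 0 in 20, while SYP and NCAM1 were detected in every library, with at most 3.33 and 0.622 CPM. The mesenchymal gene COL1A2 was at 0 in all 30, while VIM, COL1A1 and PDGFRB were detected in every library, with at most 28.4, 21.8 and 1.41 CPM. The labels speak of triplicates without saying whether these were separate cultures, so p-values measure the spread between these libraries, which may be technical.

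Levels per length, as the FPKM values deposited by the authors, covered a wide range. CDK1 and CCNB1, the kinase and cyclin that form the mitotic driver, were the most abundant, with medians over the 30 libraries of 32.5 and 27.8 FPKM. UBE2C (14.9 FPKM), TPX2 (14.5 FPKM) and CDC20 (12.9 FPKM) came next. MKI67, the proliferation antigen Ki-67, had 3.52 FPKM and BUB1, a spindle checkpoint kinase, 3.06 FPKM. At the other end stood ASPM at 1.05 FPKM and PRC1, the antiparallel microtubule bundler of the midzone, at 0.0659 FPKM. PRC1 received only 2 to 40 counts per library. In the GENCODE annotation 57.6% of its exon bases are shared with AC068831.7 on the same strand, which received 1212 counts in all libraries together against 288 for PRC1, so its values are uncertain. NUSAP1 shares 62.2% of its exon bases with AC087721.2, and BUB1B 10.2% with BUB1B-PAK6, likewise on the same strand. CENPA shares 6.96% with SLC35F6 on the same strand, which received 33998 counts in all libraries together against 3989 for CENPA. In all, 15 of the 38 genes share some exon bases with another gene. FOXM1 (15.9%, with ITFG2) and PLK1 (11.6%, with AC008870.3) share over 10% with a gene on the opposite strand. CDC25C shares 8.78% with FAM53C on the opposite strand, which received 74087 counts against 6714 for CDC25C. Whether counting used strand is not given in the sources used here.

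The mean of log2(CPM + 1) over the 38 genes was highest in the NES line under both conditions. It was 4.84 ± 0.34 (SD, n = 3) under vehicle and 4.87 ± 0.12 under R1881. The lowest mean was in NLS cells under vehicle, at 3.94 ± 0.45, followed by EV cells under R1881 at 4.11 ± 0.06. The other 6 groups lay between 4.23 and 4.57, with SDs of 0.22 to 0.50. Gene by gene, the highest of the 10 group means was NES under R1881 for 19 genes, NES under vehicle for 17 and EV under vehicle for 2. The lowest was NLS under vehicle for 22 genes, EV under R1881 for 10 and WT under vehicle for 6. Summed over the 38 genes, the single libraries ran from 522 CPM in NLS vehicle number 2 to 1767 CPM in 1 of the NES vehicle libraries.

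**Figure D1:**
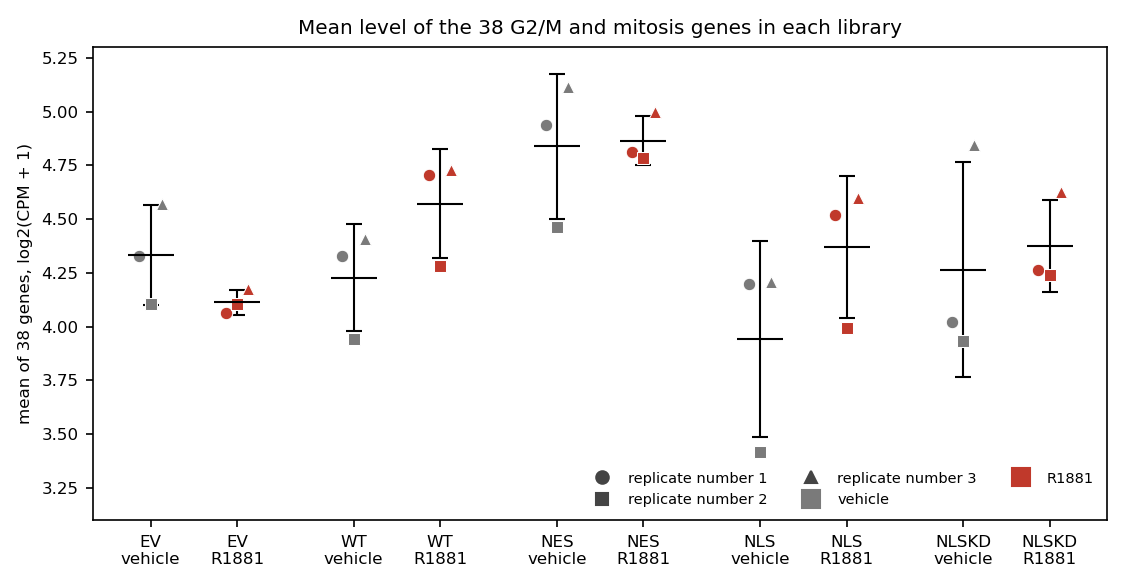
Mean of log2(CPM + 1) over the 38 genes (y axis) in each of the 30 libraries, by line and treatment (x axis); circles, squares and triangles are replicate numbers 1, 2 and 3, and the bar and whiskers are the group mean and SD. The 3 NES libraries under R1881 sit above all 3 EV libraries under R1881, and the number 2 library is the lowest of its group in 9 of 10 groups.

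Under R1881 the NES line held more of these transcripts than EV, and this was the comparison with the most calls. Of the 38 genes, 10 were higher and 0 lower (edgeR quasi-likelihood test, Benjamini-Hochberg adjusted p under 0.05), where 3.27% of all genes tested were called higher. All 38 fold changes were positive, with a median log2 fold change of 0.85 against 0.03 over all genes. In 32 of the 38 genes all 3 NES libraries exceeded all 3 EV libraries, which held for 15% of all genes. The 6 whose libraries overlapped were AURKB, KIF23, NUSAP1, ECT2, PTTG1 and BIRC5. The count of 10 rested on few libraries: it was 3, 5 and 2 without EV numbers 1, 2 and 3, and 6 and 2 without NES numbers 2 and 3. Without all libraries numbered 2 (a choice made after seeing the data) it was 6, where 1.36% of all genes were called higher, and TOP2A and KIF4A, not among the 10, were among the 6. Leaving out the 5 libraries above 9% mitochondrial counts again gave 10, where 2.44% of all genes were called higher, but not the same 10. NDC80, KIF20A and UBE2C no longer passed there, and TOP2A, MKI67 and KIF4A did.

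CDK1, the kinase of mitotic entry (chromosome 10 from 60778331 to 60794852, hg38, plus strand), had the smallest adjusted p. It stood at 92.5, 110 and 96.0 CPM in EV cells and at 183, 204 and 184 CPM in NES cells under R1881. The lowest NES library was thus well above the highest EV library, and the log2 fold change was 0.94 ± 0.20 (SE; adjusted p = 0.00344), a ratio of 1.91. CDC25C, the phosphatase that activates CDK1, had 4.36, 6.79 and 5.76 CPM in EV and 10.4, 10.5 and 13.5 CPM in NES, a log2 fold change of 1.02 ± 0.26 (adjusted p = 0.0151). CCNB1, which encodes cyclin B1, had 51.8, 66.8 and 57.9 CPM in EV and 79.1, 92.1 and 108 CPM in NES. Its groups did not overlap either, and its log2 fold change of 0.66 ± 0.23 did not pass (adjusted p = 0.0924). The remaining cyclins, CCNB2 (0.52 ± 0.24) and CCNA2 (1.01 ± 0.41), did not pass the test, with adjusted p-values of 0.245 and 0.164.

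Among the 7 mitotic kinases, PLK1, which promotes mitotic entry and spindle assembly, was the one called. PLK1 (chromosome 16 from 23677656 to 23690367, plus strand) had 14.9, 14.1 and 16.8 CPM in EV cells and 31.1, 33.2 and 49.9 CPM in NES cells. Its log2 fold change of 1.32 ± 0.32 (adjusted p = 0.011) was the largest of the 38, a ratio of 2.49. AURKA, the centrosomal Aurora kinase, had 17.3, 16.3 and 17.6 CPM in EV and 27.0, 26.3 and 34.5 CPM in NES, with a log2 fold change of 0.77 ± 0.26 that missed the threshold (adjusted p = 0.076). BUB1 had 15.5, 15.6 and 15.7 CPM in EV and 26.2, 18.8 and 23.9 CPM in NES (0.56 ± 0.34, adjusted p = 0.419). The NES libraries of BUB1 were all above the very even EV libraries but differed more among themselves. TTK, AURKB, NEK2 and BUB1B had log2 fold changes between 0.53 and 0.96.

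Of the 6 kinetochore and centromere genes, NDC80 was called. NDC80 (chromosome 18 from 2571511 to 2616635, plus strand) encodes the kinetochore protein that binds microtubule ends. It had 15.6, 22.8 and 19.5 CPM in EV and 30.4, 36.6 and 31.9 CPM in NES, a log2 fold change of 0.77 ± 0.20 (adjusted p = 0.0183). CENPF, a large kinetochore-associated protein, had 32.7, 34.1 and 39.6 CPM in EV and 61.0, 53.7 and 76.0 CPM in NES, and its log2 fold change of 0.84 ± 0.40 did not pass (adjusted p = 0.254). CENPA, the centromeric histone, came nearest to the threshold of all genes not called, at 1.24 ± 0.39 (adjusted p = 0.0517). Among the motors KIF20A, which acts in the midzone during cytokinesis, had 18.4, 21.7 and 20.5 CPM in EV and 31.6, 40.3 and 46.2 CPM in NES (0.96 ± 0.28, adjusted p = 0.0368). KIF2C, a microtubule depolymerase at centromeres, had 16.0, 15.7 and 14.6 CPM in EV and 23.5, 29.7 and 33.6 CPM in NES (0.91 ± 0.23, adjusted p = 0.0121). KIF23, a motor of the central spindle, had the smallest fold change of the 38 at 0.03 ± 0.32, and its libraries lay at 10.1 to 12.4 CPM in EV and 10.5 to 11.7 CPM in NES.

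TPX2, the spindle assembly factor that activates AURKA, was the spindle gene called. It had 36.7, 47.5 and 38.5 CPM in EV and 61.2, 64.4 and 83.5 CPM in NES, with a log2 fold change of 0.77 ± 0.22 (adjusted p = 0.0275). CDC20 and UBE2C, an activator and an E2 enzyme of the anaphase-promoting complex, were both higher. CDC20 had 18.7, 23.2 and 26.1 CPM in EV and 41.7, 47.4 and 70.5 CPM in NES (1.23 ± 0.36, adjusted p = 0.0346). UBE2C had 15.3, 19.5 and 15.7 CPM in EV and 25.5, 39.5 and 39.0 CPM in NES (1.04 ± 0.31, adjusted p = 0.0413). FOXM1, the transcription factor of the late cell cycle, was at 29.2, 30.3 and 28.3 CPM in EV and at 51.2, 43.2 and 64.3 CPM in NES (0.85 ± 0.26, adjusted p = 0.0432). TOP2A, the topoisomerase that untangles sister chromosomes, had 37.0, 28.8 and 38.8 CPM in EV and 85.4, 73.4 and 83.4 CPM in NES. Its groups were far apart, but its log2 fold change of 1.21 ± 0.42 did not pass (adjusted p = 0.0857). MKI67 was at 38.7, 32.2 and 45.5 CPM in EV and at 70.7, 57.6 and 75.5 CPM in NES (0.81 ± 0.30, adjusted p = 0.124). The cytokinesis genes ANLN and ECT2 had 1.18 ± 0.43 and 0.51 ± 0.49, and neither passed.

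**Figure D2:**
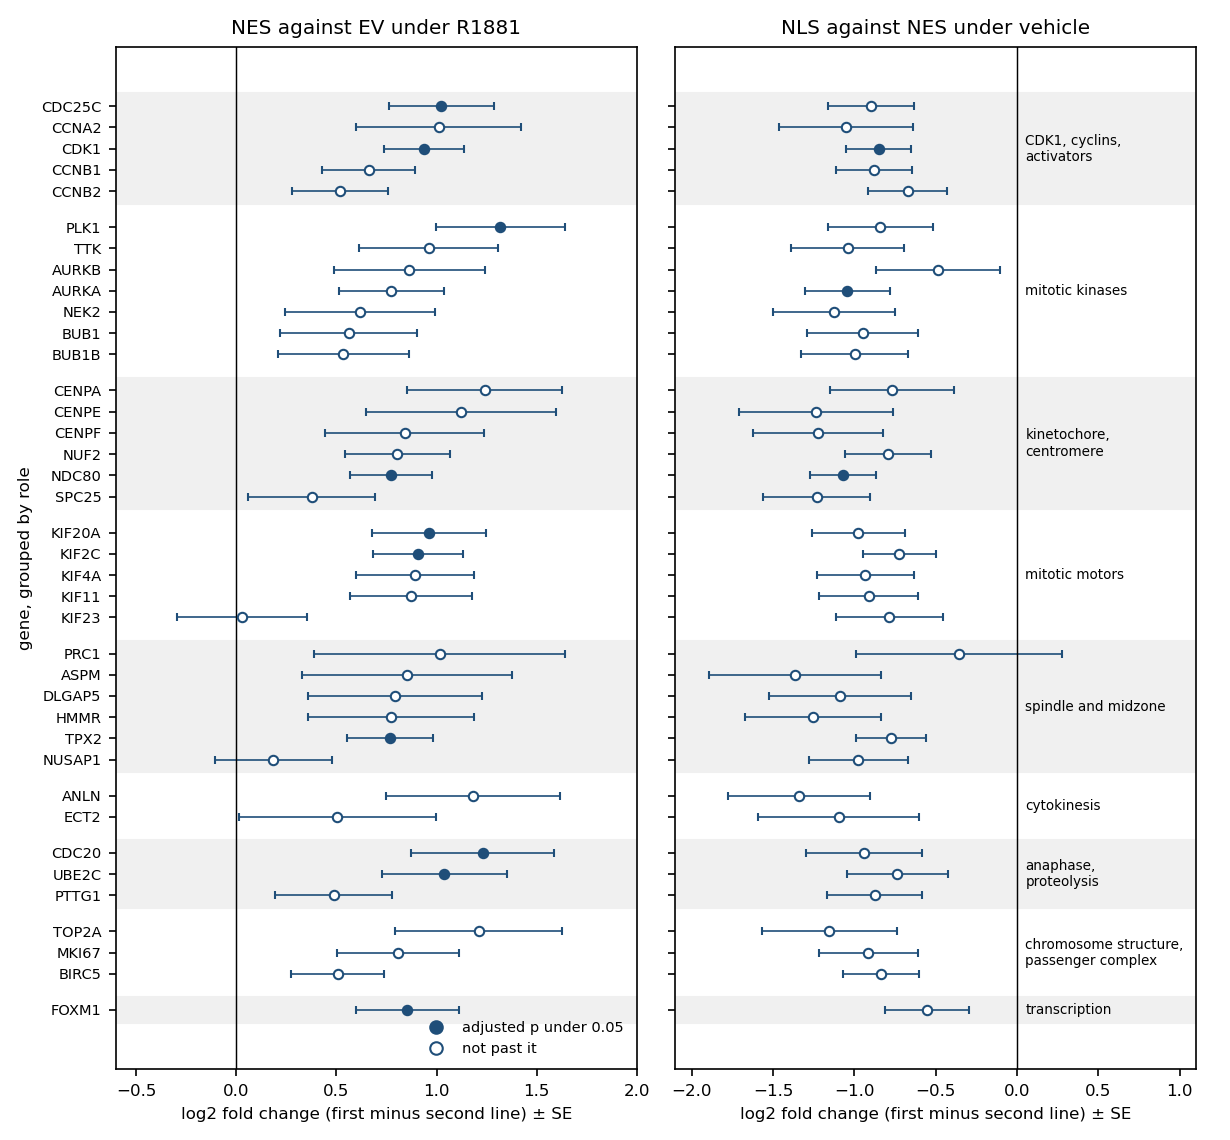
Log2 fold change ± SE (x axis) of the 38 genes, grouped by role (y axis), for NES against EV under R1881 (left) and NLS against NES under vehicle (right); filled points passed an adjusted p of 0.05. All 38 points lie above 0 on the left, with 10 filled, and all 38 below 0 on the right, with 3 filled.

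In WT cells under R1881, compared with the same EV libraries, 3 genes were higher and 0 lower, where 3.66% of all genes were called higher and 4.83% lower. CDK1 was at 201, 150 and 173 CPM in WT, above all EV libraries (0.81 ± 0.20, adjusted p = 0.00869). NDC80 (0.67 ± 0.20, adjusted p = 0.0394) and KIF2C (0.71 ± 0.23, adjusted p = 0.0481) were the others. WT libraries all exceeded EV libraries in 19 of the 38 genes, against 13.2% of all genes, and 35 fold changes were positive with a median of 0.51. The exceptions were KIF23 (-0.13 ± 0.32), PTTG1, the securin (-0.26 ± 0.29), and BIRC5, the passenger complex subunit survivin (-0.05 ± 0.23), none of them called. The count of 3 became 1 without EV number 1, EV number 3 or WT number 3 and 0 without WT number 1. It was also 1 with RLE size factors in place of TMM. It was again 3 without the libraries of high mitochondrial share, with FOXM1 called in place of NDC80, and without all libraries numbered 2, with TOP2A in place of KIF2C.

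For NLS and NLSKD cells under R1881 no member passed the edgeR test against EV. In NLS the median log2 fold change was 0.36, with 34 positive, and 8 genes had an unadjusted p under 0.05. Over all genes 6.23% were called and 17.2% had such an unadjusted p, and DESeq2 called 0 members. In NLSKD the median was 0.37, with 32 positive and 2 genes at an unadjusted p under 0.05. Over all genes the shares were 5.75% and 16.5%, and DESeq2 again called 0 members, as did edgeR with replicate number as a block, which the NLSKD and EV libraries warranted. With the block, which was also warranted for the NLS and EV libraries, TOP2A became the single gene higher in NLS (0.79 ± 0.25, adjusted p = 0.0395), where 4.95% of all genes were called higher. TOP2A was at 93.1, 31.1 and 68.3 CPM in NLS cells, so its number 2 library lay within the EV range. Without the libraries of high mitochondrial share 2 members, TOP2A and FOXM1, were called higher in NLS, where 2.76% of all genes were. The comparisons of NES, WT, NLS and NLSKD with EV share the same 3 EV libraries and are not independent of each other.

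Under vehicle CDK1 was the single gene higher in NES than in EV cells, and 1.87% of all genes were called higher. It had 94.5, 84.7 and 119 CPM in EV and 182, 139 and 187 CPM in NES, with no overlap (0.77 ± 0.20, adjusted p = 0.0206, a ratio of 1.70). Of the 38 fold changes 36 were positive, with a median of 0.61. An unadjusted p under 0.05 was found for 12 of the 38 and for 2548 of the 18296 genes tested. PLK1 was at 16.0, 19.8 and 19.8 CPM in EV and at 26.6, 27.6 and 54.8 CPM in NES (0.97 ± 0.32, adjusted p = 0.0909). CCNB1 had a log2 fold change of 0.75 ± 0.23 (adjusted p = 0.0656) and KIF4A, a chromosome-bound motor, of 0.93 ± 0.30 (adjusted p = 0.0743). CENPF (0.90 ± 0.40) and TOP2A (0.86 ± 0.41) did not pass. NES number 2 was low for both, with 40.0 CPM for CENPF against 106 and 95.2 CPM in the other NES libraries. The call on CDK1 was lost without EV number 1 or 2 or NES number 3. It was also lost without all libraries numbered 2, where KIF4A was called in its place (0.97 ± 0.20, adjusted p = 0.0149). The count was 2 without EV number 3, 3 without NES number 1 or 2 and 3 when libraries above 9% mitochondrial counts were left out, where 1.37% of all genes were called higher. DESeq2 called 4 members higher, and 2.23% of the genes it gave an adjusted p.

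WT and NLSKD cells under vehicle gave no edgeR call against EV. In WT cells 14 fold changes were positive and 24 negative, with a median of -0.07, and 2 genes, NUSAP1 and BIRC5, had an unadjusted p under 0.05. Over all genes 6.71% were called and 17.2% had such an unadjusted p. BIRC5 was at 38.8, 44.3 and 45.3 CPM in EV and 29, 24.4 and 26.9 CPM in WT, groups that did not overlap, with a log2 fold change of -0.68 ± 0.23 (adjusted p = 0.0886). In NLSKD cells 18 fold changes were positive and 20 negative, with a median of -0.04 and no member at an unadjusted p under 0.05. The shares over all genes were 4.01% and 12.9%. DESeq2 called 0 members in either comparison.

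In NLS cells under vehicle 36 of the 38 fold changes against EV were negative, with a median of -0.43 against -0.01 over all genes. PLK1 (0.13 ± 0.32) and CDC20 (0.07 ± 0.35) were the exceptions. No member passed, and 6 had an unadjusted p under 0.05 (BUB1B, NDC80, SPC25, KIF23, NUSAP1 and BIRC5), where 4.57% of all genes were called and 14.8% had such an unadjusted p. DESeq2 called 1 member lower, SPC25, a kinetochore subunit of the NDC80 complex, and 3.7% of the genes it gave an adjusted p. SPC25 was at 4.81, 4.18 and 6.56 CPM in EV and 2.80, 0.989 and 3.91 CPM in NLS. With the replicate block, warranted for these libraries, 4 members were lower where 5.39% of all genes were: BIRC5, BUB1B, KIF23 and SPC25. Without NLS number 3 the unblocked test called 1.

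NLS and NES, the lines whose tags direct mTOR to the nucleus or out of it, stood furthest apart under vehicle. They also differed in MTOR transcript, with means of 930 CPM in NLS and 5252 CPM in NES under vehicle. Under R1881 the means were 1037 and 4296 CPM. The tag and the amount of MTOR transcript cannot be told apart between these lines. All 38 fold changes of NLS against NES were negative, with a median of -0.94 against -0.00 over all genes. Of the 38, 35 had an unadjusted p under 0.05, as did 1535 of the 18296 genes tested. After adjustment 3 genes were lower in NLS and 0 higher, where 0.536% of all genes were called lower. NDC80 was at 40.6, 28.5 and 38.2 CPM in NES and 16.3, 15.5 and 19.4 CPM in NLS (-1.07 ± 0.21, adjusted p = 0.00587). CDK1 was at 182, 139 and 187 CPM in NES and 87.4, 77.8 and 117 CPM in NLS (-0.85 ± 0.20, adjusted p = 0.0321). AURKA was at 29.3, 21.2 and 36.4 CPM in NES and 15.2, 10.6 and 16.3 CPM in NLS (-1.04 ± 0.26, adjusted p = 0.0494). None of the 3 genes overlapped between the lines, and in 27 of the 38 genes all NLS libraries lay below all NES libraries, against 6.06% of all genes. The lowest NLS library carried number 2, with a mitochondrial share of 10.6% against 4.2 to 7.73% in NES vehicle libraries, and its part in the result was not tested. The count was 1 without that library, 0 without NLS number 1, 1 without NES number 1 or 3 and 0 when those above 9% mitochondrial counts were left out. Without the libraries numbered 2 it was 0. DESeq2 called 9 lower, and 1.16% of the genes it gave an adjusted p.

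Other members of the set showed the same order with wider spread. BUB1 was at 34.7, 19.7 and 29.5 CPM in NES vehicle libraries and at 18.4, 7.37 and 17.6 CPM in NLS (-0.95 ± 0.34, adjusted p = 0.28). TOP2A was at 141, 55.2 and 108 CPM in NES and 56.2, 20.9 and 59.4 CPM in NLS, so that 1 NES library fell within the NLS range. MKI67 was at 62.8, 43.9 and 77.9 CPM in NES and 37.5, 21.7 and 38.8 CPM in NLS, with no overlap (-0.91 ± 0.31, adjusted p = 0.216). FOXM1 had the third smallest difference, -0.55 ± 0.26, after PRC1 (-0.36 ± 0.63) and AURKB (-0.49 ± 0.38). Under R1881 the 38 fold changes of NLS against NES were again all negative, with a smaller median of -0.44, and no member passed edgeR's test. There 8 had an unadjusted p under 0.05, while 1.37% of all genes were called and 9.19% had such an unadjusted p, and DESeq2 called 0 members. With the replicate block, warranted for this pair, KIF20A (-0.72) and AURKA (-0.76) were lower, where 1.26% of all genes were called lower. Whether the NLS to NES difference was itself smaller under R1881 was not tested.

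No member was called between NLS and its kinase-dead form NLSKD. For NLS against NLSKD under vehicle 0 members passed with edgeR, 0 with the replicate block that these libraries warranted and 0 with DESeq2, 2 had an unadjusted p under 0.05, and the median was -0.37 with 36 negative. Over all genes 0.0109% were called and 1.63% had such an unadjusted p. CDK1 was at 84.1, 128 and 145 CPM in NLSKD against 87.4, 77.8 and 117 CPM in NLS, a log2 fold change of -0.34 ± 0.20. NLSKD number 3 was the highest library of its group for all 38 genes. Under R1881 the median was 0.03, with 22 positive and 16 negative, and 0 members passed with edgeR, with DESeq2 or at an unadjusted p under 0.05. Over all genes 0.00547% were called and 1.95% had such an unadjusted p. These misses do not show that the lines acted alike.

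After R1881, edgeR without the replicate block called genes of the set in WT cells and in no other line. In WT, 2 of the 38 were higher after R1881 and 0 lower, a share not far above the 3.47% of all genes called higher. The test of the difference between the WT and EV responses, given below, called no member. KIF20A was at 12.8, 9.28 and 19.3 CPM under vehicle and 25, 22 and 33.4 CPM under R1881, without overlap (0.96 ± 0.28, adjusted p = 0.0399). NUSAP1, a spindle microtubule binder, was at 1.88, 2.30 and 2.75 CPM and then at 5.79, 3.36 and 5.45 CPM (1.08 ± 0.30, adjusted p = 0.0278), with the overlap of gene models named above. All 38 fold changes in WT were positive, with a median of 0.35 against 0.01 over all genes. Of the 38, 8 had an unadjusted p under 0.05, as did 3038 of the 18296 genes tested. With the replicate block, warranted for the WT libraries, AURKB was called as well (0.90 ± 0.27, adjusted p = 0.0312), where 5.44% of all genes were called higher. AURKB was at 5.02, 6.67 and 9.46 CPM under vehicle and 11, 11.8 and 15.7 CPM under R1881, without overlap. The calls on KIF20A and NUSAP1 in the fit without the block were both lost when leaving out WT vehicle number 1 or 2 or WT R1881 number 1 or 3, and 1 was left without the libraries numbered 2.

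In NLS cells the 38 fold changes with R1881 were likewise all positive, with a median of 0.46 against 0.02 over all genes. No member passed edgeR or DESeq2, 7 had an unadjusted p under 0.05, and over all genes the shares were 4.44% and 12.3%. CDK1 was at 87.4, 77.8 and 117 CPM under vehicle and 152, 121 and 130 CPM under R1881, groups that did not overlap (0.52 ± 0.20, adjusted p = 0.195). KIF20A was at 14.7, 9.39 and 16.3 CPM and then at 20.2, 21 and 31.6 CPM (0.85 ± 0.28, adjusted p = 0.105). In EV cells the fold changes pointed the other way for most genes, with 31 negative, a median of -0.28 and no member called or at an unadjusted p under 0.05. Over all genes of the EV comparison 9.11% were called and 19.2% had such an unadjusted p. TOP2A was at 57.8, 35.3 and 74.3 CPM in EV under vehicle and 37.0, 28.8 and 38.8 CPM under R1881 (-0.68 ± 0.41, adjusted p = 0.427). FOXM1 was at 39.7, 37.5 and 38.4 CPM and then at 29.2, 30.3 and 28.3 CPM, without overlap (-0.40 ± 0.26, adjusted p = 0.467). DESeq2 called 0 members in EV, as did edgeR with the replicate block, which these libraries warranted.

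NES and NLSKD cells showed fold changes with R1881 near 0. In NES the median was 0.01, with 20 positive and 18 negative, no member passed edgeR or DESeq2 and none had an unadjusted p under 0.05, against 8.25% and 19.1% of all genes. With the replicate block, warranted here, KIF20A was the single gene higher (0.62 ± 0.19, adjusted p = 0.0256), where 7.18% of all genes were called higher. KIF20A was at 22.4, 18.9 and 38.3 CPM in NES under vehicle and 31.6, 40.3 and 46.2 CPM under R1881. In NLSKD the median was 0.07, with 27 positive, no member passed edgeR or DESeq2 and none had an unadjusted p under 0.05, against 4.08% and 11.1% of all genes.

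The test of the difference between a line's response to R1881 and that of EV called no member. The median difference was 0.64 for WT and 0.71 for NLS, with all 38 positive in each, 0.28 for NES with 30 positive and 0.35 for NLSKD with 33 positive. At an unadjusted p under 0.05 stood 6 members in WT, 7 in NLS and none in NES or NLSKD. Over all genes 0.0437% were called in WT and 3.86% had such an unadjusted p. For NLS the shares were 0.0164% and 3.83%, for NES 0% and 2.68% and for NLSKD 0.0164% and 3.61%. DESeq2 called 0 members in these 4 tests. CDK1 gave 0.45 ± 0.28 in WT and 0.52 ± 0.28 in NLS, and FOXM1 gave 0.74 ± 0.36 and 0.75 ± 0.36, all with an adjusted p of 1. The 4 differences share the EV libraries, which were low under R1881.

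**Figure D3:**
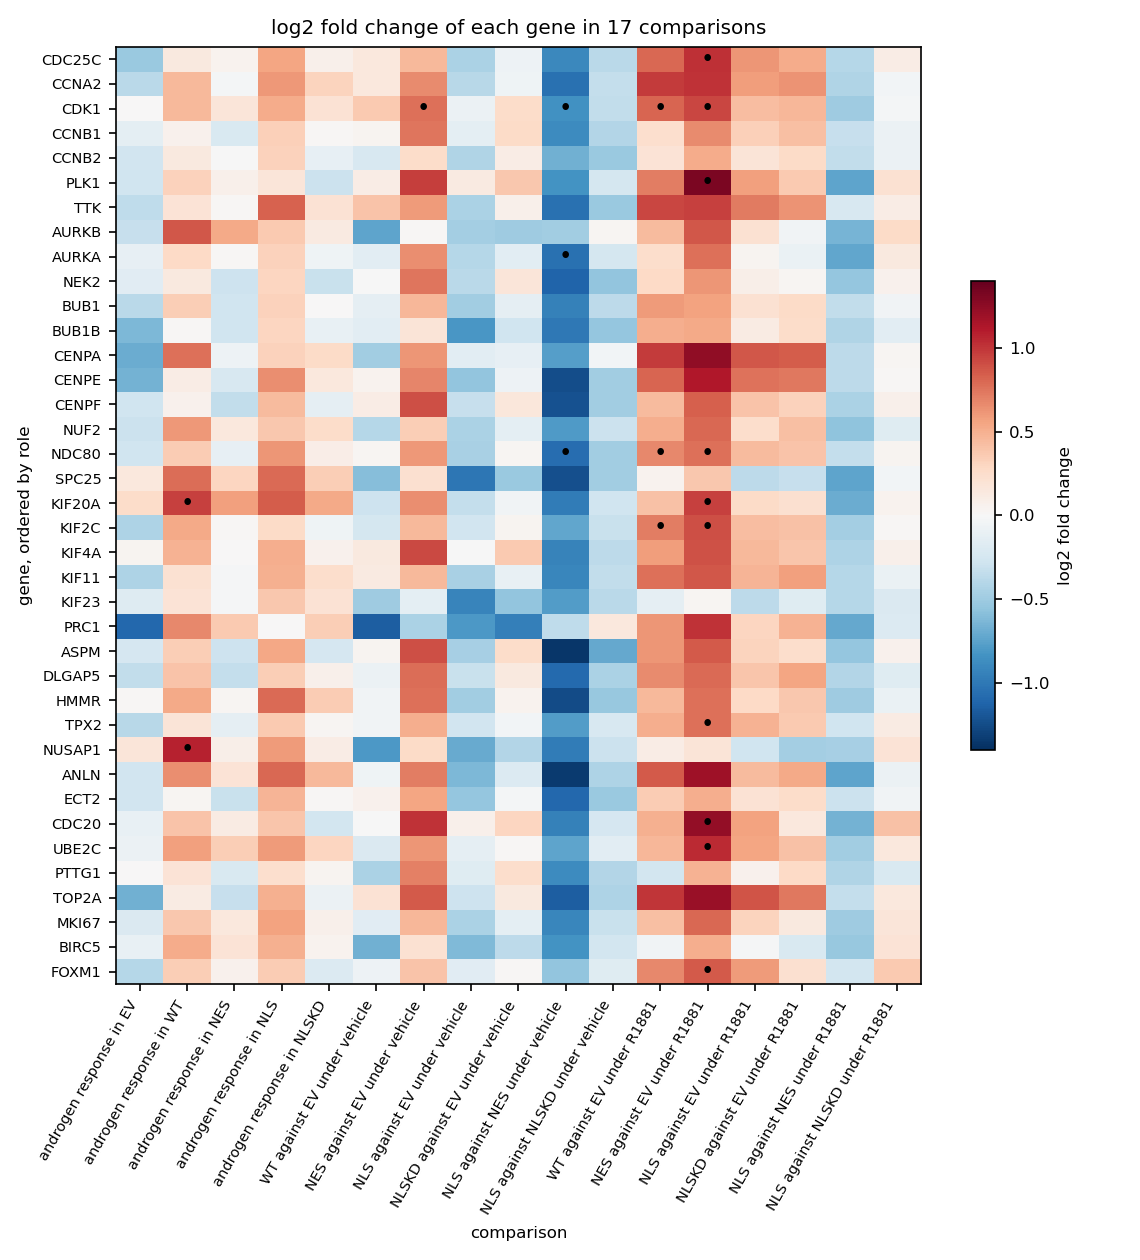
Log2 fold change (colour) of the 38 genes (rows, ordered by role) in 17 comparisons (columns); a dot marks an adjusted p under 0.05. The column of NLS against NES under vehicle is blue throughout and that of NES against EV under R1881 red throughout, while the columns for the R1881 response in NES and NLSKD and for NLS against NLSKD under R1881 are near white.

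Libraries also differed by replicate number in a way that the lines and treatments do not describe. The number 2 library had the lowest mean of the 38 genes in 9 of 10 groups, and in NLS and WT under vehicle it was the lowest library for 33 of 38 genes. The difference varied with gene length. Averaged over the 10 groups, the log2 difference of number 2 minus number 1 was -1.05 for ECT2 (5499 bases), -0.90 for ASPM (10887 bases) and -0.86 for the kinesin CENPE (9444 bases). The same difference was 0.58 for AURKB (2241 bases), 0.50 for UBE2C (1286 bases) and 0.31 for PTTG1 (2013 bases). Other short genes were below 0, with -0.26 for SPC25 (1841 bases), -0.03 for CENPA (1983 bases) and -0.07 for CDC20 (2038 bases). Across the 38 genes Pearson's r between log2 length and this difference was -0.623 (Spearman -0.583), as a description of points that share the same libraries. The difference of number 3 minus number 1 varied with length too, with a Pearson's r of -0.452 across the 38. Across all 18296 genes r for number 2 minus number 1 was -0.333, and across the 11077 genes with a mean of at least 5 CPM it was -0.457. The part of gene length and of replicate number in the comparisons above was not tested beyond the fits with a block and without the libraries numbered 2.

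**Figure D4:**
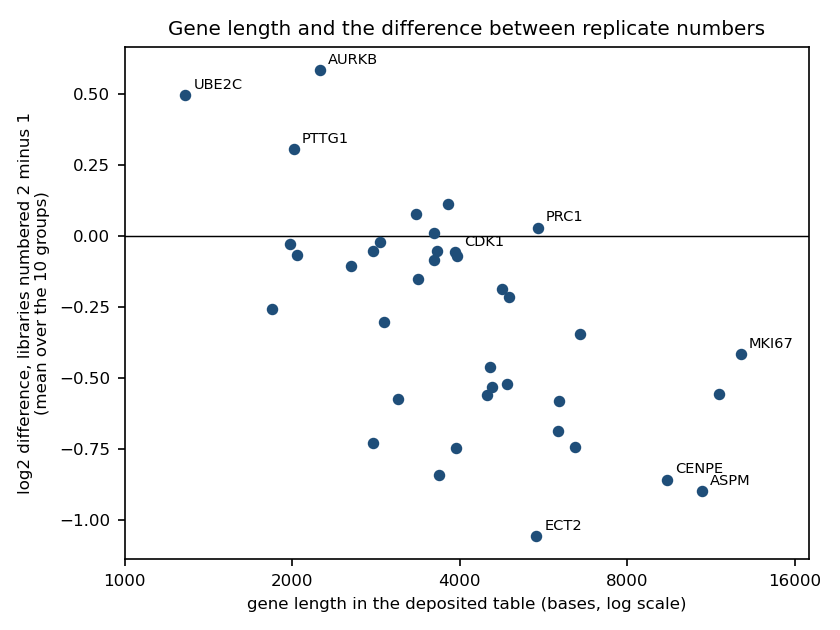
Mean over the 10 groups of the log2 difference between libraries numbered 2 and 1 (y axis) against gene length in bases (x axis, log scale); each point is 1 of the 38 genes. The short genes UBE2C and AURKB lie above 0, SPC25, also short, lies below it, and the long genes ASPM and CENPE lie further below.

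Most of the 38 genes varied together, and whether other genes did so as closely was not tested. Over the 30 libraries the 703 pairwise Pearson correlations of log2(CPM + 1) had a median of 0.696 and ran from -0.186 to 0.971, which describes points sharing libraries, lines and replicate numbers. KIF4A (0.947), MKI67 (0.938) and AURKA (0.935) followed the mean of the other members most closely. AURKB (0.378) and the sparsely counted PRC1 (0.125) followed it least. UBE2C and PTTG1, of the anaphase group, were also loosely tied to it, at 0.490 and 0.459, while CDC20, the third gene of that group, stood at 0.762. For deviations from the group means the values were 0.958 for KIF4A, 0.9 for MKI67, 0.941 for AURKA and 0.617 for CDC20. They were 0.0365 for AURKB, -0.243 for PRC1, 0.0321 for UBE2C and 0.237 for PTTG1.

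Whether promoter elements had a part in the shared variation of these genes was not tested. The promoters of the 38 were searched for the elements known to time this wave of transcription. These are the cell cycle genes homology region (CHR), read here as TTTGAA or TTCGAA on either strand, and the CCAAT box bound by NF-Y, read as CCAAT on either strand. RefSeq windows (GRCh38.p14) from 250 bases before to 50 bases after the start site were at hand for 32 of the 38 genes. AURKA, TPX2, UBE2C, BIRC5, FOXM1 and TTK were not matched. CHR letters were present in 23 of the 32 windows (71.9%), against 16.6% of 27305 promoters of the same length. Within 50 bases before the start or downstream of it they were found in 18 windows (56.2%), against 5.05% of all. CCAAT was present in 25 windows (78.1%), against 35.7%, and at least 2 CCAAT boxes in 17 (53.1%), against 11.3%. Both elements occurred in 19 windows (59.4%), against 6.58%. These shares were not particular to the 38. Among 71 windows of the further mitosis genes described below, 64.8% held CHR letters, 54.9% near the start, and 63.4% held CCAAT. Among 36 windows of the G1 to S genes, 11.1% held CHR letters and 52.8% CCAAT. A match of letters is not a site in use, and CCNB1 and KIF20A, which have no CHR letters in this window, hold 2 CCAAT boxes each.

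The 6 windows below belong to genes whose values are given above and that hold CHR letters, with CHR and CCAAT matches on either strand in capitals. They are CDK1 (chr10:60778081-60778380, plus strand), PLK1 (chr16:23678639-23678938, plus), BUB1 (chr2:110678014-110678313, minus), CENPF (chr1:214602945-214603244, plus), TOP2A (chr17:40417847-40418146, minus) and MKI67 (chr10:128126374-128126673, minus), each read 5′ to 3′ along the gene.
CDK1: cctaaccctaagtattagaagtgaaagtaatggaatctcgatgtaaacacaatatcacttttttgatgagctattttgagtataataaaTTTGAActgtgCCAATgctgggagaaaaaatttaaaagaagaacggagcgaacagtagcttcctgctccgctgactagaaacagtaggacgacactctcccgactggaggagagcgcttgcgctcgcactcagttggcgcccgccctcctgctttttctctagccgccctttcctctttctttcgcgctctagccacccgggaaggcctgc
PLK1: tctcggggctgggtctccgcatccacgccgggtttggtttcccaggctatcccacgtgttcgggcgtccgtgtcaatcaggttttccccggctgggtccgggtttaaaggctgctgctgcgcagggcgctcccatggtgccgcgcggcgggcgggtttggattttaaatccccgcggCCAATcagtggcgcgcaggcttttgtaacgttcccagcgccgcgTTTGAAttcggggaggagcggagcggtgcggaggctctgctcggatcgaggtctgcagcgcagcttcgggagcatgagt
BUB1: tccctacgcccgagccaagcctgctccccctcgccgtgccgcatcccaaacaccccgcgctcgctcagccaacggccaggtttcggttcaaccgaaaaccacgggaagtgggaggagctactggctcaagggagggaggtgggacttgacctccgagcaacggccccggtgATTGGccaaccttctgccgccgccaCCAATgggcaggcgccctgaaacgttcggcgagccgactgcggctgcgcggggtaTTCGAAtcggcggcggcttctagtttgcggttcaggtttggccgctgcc
CENPF: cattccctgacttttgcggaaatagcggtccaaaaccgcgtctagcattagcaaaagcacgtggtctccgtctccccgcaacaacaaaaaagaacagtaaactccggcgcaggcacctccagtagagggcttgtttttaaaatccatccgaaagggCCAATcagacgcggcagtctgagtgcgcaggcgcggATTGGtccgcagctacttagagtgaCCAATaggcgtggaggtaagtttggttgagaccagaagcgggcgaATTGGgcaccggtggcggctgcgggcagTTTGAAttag
TOP2A: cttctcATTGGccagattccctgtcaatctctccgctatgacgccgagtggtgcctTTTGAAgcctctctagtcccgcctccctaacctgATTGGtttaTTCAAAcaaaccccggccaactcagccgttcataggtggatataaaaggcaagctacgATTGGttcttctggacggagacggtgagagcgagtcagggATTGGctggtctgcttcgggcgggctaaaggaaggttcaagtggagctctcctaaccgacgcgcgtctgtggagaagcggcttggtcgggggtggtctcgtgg
MKI67: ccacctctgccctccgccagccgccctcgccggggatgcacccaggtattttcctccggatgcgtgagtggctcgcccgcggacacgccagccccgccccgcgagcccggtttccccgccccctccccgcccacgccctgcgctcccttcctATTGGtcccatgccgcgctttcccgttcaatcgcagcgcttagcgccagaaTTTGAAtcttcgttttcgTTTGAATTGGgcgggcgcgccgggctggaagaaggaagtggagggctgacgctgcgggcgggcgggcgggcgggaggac

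In the PLK1 window a single CHR match begins 29 bases before the start and its CCAAT box 73 bases before it. The window lies within the longer PLK1 gene model of the deposited table, which begins further upstream. BUB1 and CENPF carry their CHR letters just downstream of the start, at positions 2 and 41, with 2 and 4 CCAAT boxes. CDK1 has its CHR letters 161 bases before the start, next to its CCAAT box at 150 bases before it. TOP2A has CHR letters at 194 and 151 bases before the start and 4 CCAAT boxes. In MKI67, with CHR letters at 47 and 29 bases before the start, the second match shares letters with a CCAAT box. Of the 10 genes higher in NES than EV under R1881, 7 have a matched window, and CHR letters were present in those of CDK1, PLK1, NDC80 and CDC20 but not of CDC25C, KIF2C or KIF20A.

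**Figure D5:**
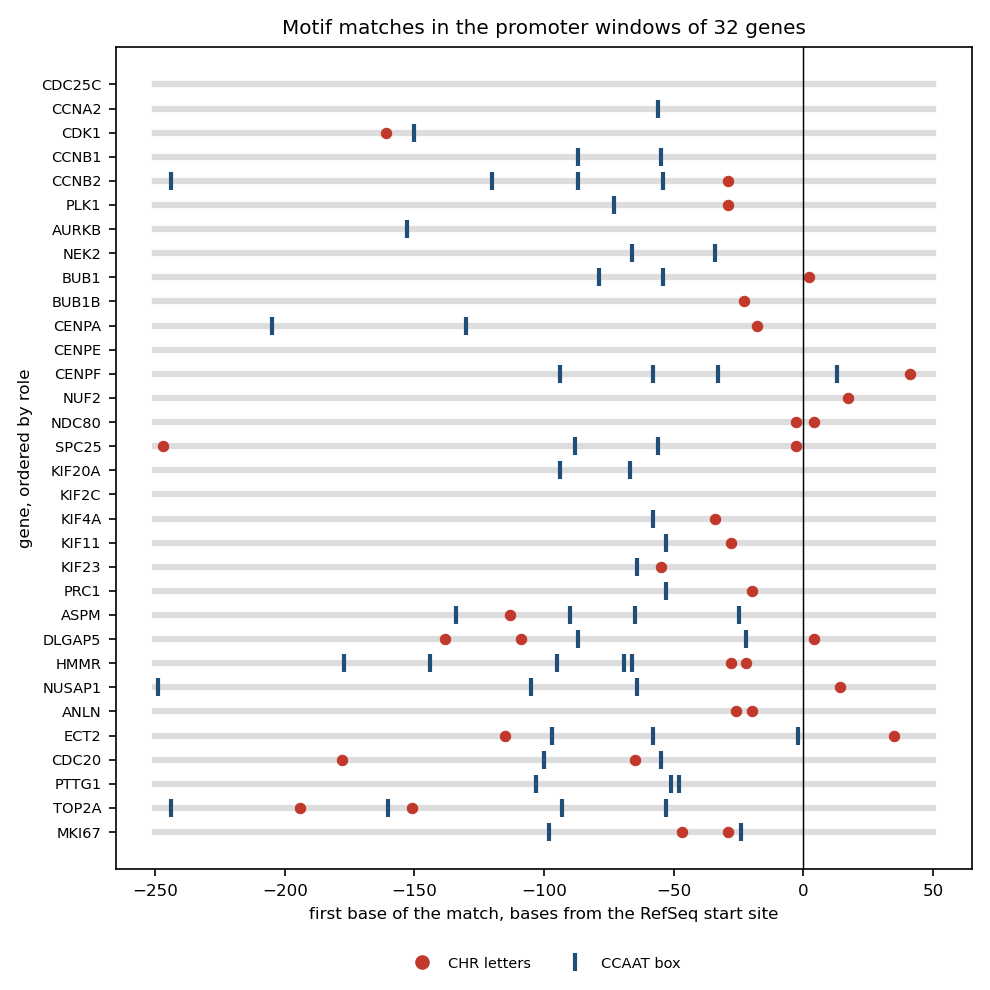
First base of each match of the CHR letters (red circles) and of CCAAT (blue bars), in bases from the RefSeq start site (x axis), for the 32 genes with a window (y axis, ordered by role). Most CHR matches lie from 50 bases before the start to the end of the window, and most CCAAT boxes upstream of them.

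Further genes of mitosis, a list of 84 drawn up with earlier results of these data known, gave counts in the same comparisons. For NES against EV under R1881, 20 were higher and 0 lower, against 3.27% of all genes higher, with a median log2 fold change of 0.62. LMNB1, a lamin of the nuclear envelope (0.89 ± 0.16), CDCA8, the passenger subunit borealin (1.19 ± 0.22), HJURP, the CENPA chaperone (1.37 ± 0.25), and CKS1B, a CDK-binding subunit (0.83 ± 0.15), had the smallest adjusted p-values, from 0.000677 to 0.000846. HJURP was at 10.9, 14.7 and 15.7 CPM in EV and 28.0, 39.8 and 39.0 CPM in NES. For WT against EV under R1881, 11 were higher and 3 lower, against 3.66% and 4.83% of all genes. The lower ones included KNSTRN, a spindle adaptor also called kinastrin (-0.83 ± 0.17, adjusted p = 0.00159), and CENPN, which binds the centromeric nucleosome (-0.96 ± 0.24, adjusted p = 0.0118). For NLS against NES under vehicle, 3 were lower, against 0.536% of all genes, namely CENPN (-1.33 ± 0.25), CEP55 (-1.17 ± 0.28) and MELK (-0.93 ± 0.22).

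CENPN, NCAPD3 and KNSTRN were the 3 of these 84 genes called higher after R1881 in all 5 lines, which held for 1.85% of all genes. NCAPD3, a subunit of condensin II, was at 77.4, 54.4 and 74.3 CPM in EV under vehicle and at 2201, 1126 and 1328 CPM under R1881. Its log2 fold change was 4.5 ± 0.34 in EV (adjusted p = 3.7e-10) and between 3.35 and 3.52 in the other lines. CENPN was at 33.4, 28.4 and 33.6 CPM and then at 633, 390 and 442 CPM in EV (3.94 ± 0.27, adjusted p = 9.51e-11). KNSTRN was at 19.8, 21.2 and 19.2 CPM and then at 41.8, 39.9 and 34.0 CPM in EV (0.94 ± 0.17, adjusted p = 0.000305). None of the vehicle and R1881 libraries overlapped for these 3 genes in EV, where no member was called.

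Genes of the G1 to S transition, of which 43 of 44 were tested, were called in the same line comparisons. For NES against EV under R1881, 17 were higher and 0 lower, against 3.27% of all genes higher, led by MCM4 (0.95 ± 0.17), UHRF1 (1.37 ± 0.25), MCM3 (0.71 ± 0.13) and E2F2 (1.58 ± 0.30). MCM4, a subunit of the replicative helicase, was at 63.7, 68.2 and 74.7 CPM in EV and 131, 130 and 137 CPM in NES. For WT against EV under R1881, 14 were higher and 0 lower, against 3.66% of all genes higher, with MCM4 at 1.04 ± 0.17 (adjusted p = 0.000122) in front. In NLS against EV 4 were higher, against 2.79% of all genes. In NLSKD against EV 1 of the 43 was, MCM6 (0.53 ± 0.13, adjusted p = 0.0139), a share no larger than the 2.8% of all genes. After R1881 7 were called higher in WT and 7 in NLS, against 3.47% and 2.78% of all genes, including CDC25A, an activator of CDK2, at 0.87 ± 0.19 and 0.83 ± 0.19. In EV 2 of the 43 were called higher, CDK6 (2.21 ± 0.52) and CDC25A (0.61 ± 0.19), a share close to the 4.55% of all genes. The mean of the G1 to S genes and that of the 38 members had a Pearson correlation of 0.718 over the 30 libraries, which share lines and depth.

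Among 15 regulators of the G2/M genes, MYBL2, the activator that opens the wave, was the single one higher in NES than EV under R1881 (1.09 ± 0.27, adjusted p = 0.0115). Of all genes 3.27% were called higher there. MYBL2 was at 31.6, 44.8 and 33.1 CPM in EV and 65.9, 79.5 and 88.4 CPM in NES, without overlap. It was also higher in WT than EV under R1881 (0.85 ± 0.27, adjusted p = 0.0495) and in WT cells after R1881 (0.99 ± 0.27, adjusted p = 0.0228). MYBL2 was 1 of 3 regulators higher in WT than EV under R1881, where 3.66% of all genes were called higher. In NLS and NLSKD against EV under R1881 1 of the 15 was higher in each, where 2.79% and 2.8% of all genes were. After R1881 1 was lower in EV, and under vehicle 1 was lower in NLS than NES. Of all genes 4.55% and 0.536% were called lower there.

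Of 8 CDK inhibitor genes, CDKN1A, which encodes p21, was lower under R1881 in WT, NLS and NLSKD cells than in EV. CDKN1A was the single one of the 8 called in each, where 4.83%, 3.44% and 2.95% of all genes were called lower. It was at 122, 131 and 124 CPM in EV, at 65.9, 86.7 and 77.6 CPM in WT (-0.71 ± 0.20, adjusted p = 0.0246) and at 54.3, 80.6 and 70.3 CPM in NLS (-0.88 ± 0.20, adjusted p = 0.00679). In NLSKD it was at 65.0, 71.9 and 58.6 CPM (-0.95 ± 0.20, adjusted p = 0.00395). NES libraries had 80.6, 73.4 and 111 CPM, all below EV as well, and did not pass. CDKN1C, which encodes p57, was higher after R1881 in EV (1.12 ± 0.34, adjusted p = 0.0373) and in WT (1.36 ± 0.36, adjusted p = 0.0195), from levels of at most 2.08 CPM under vehicle in those lines. Of the 8 inhibitor genes, 1 was called higher after R1881 in EV and 2 in WT, where 4.55% and 3.47% of all genes were. Under vehicle 1 of the 8 was called lower in WT than in EV, where 4.41% of all genes were. CDKN1C itself was at 2.08, 1.81 and 1.48 CPM in EV under vehicle and at 0.553, 0.78 and 0.903 CPM in WT, without overlap.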

How the data were processed

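RNA-seq of 30 LNCaP libraries was analysed from the authors' deposited gene-level table, which holds raw read counts and FPKM values for 58735 genes, with 21435364 to 61762468 counts per library. Per the submitters' processing notes, HISAT2 2.0.5 and featureCounts 1.5.0-p3 were used with build hg38; no source used here gives the strand setting. Per the labels, reads were paired, 150 bases long. The deposited FPKM values match counts over gene length and were used for levels between genes. Counts were fitted with edgeR 4.0.16 in R 4.3.3 (TMM, filterByExpr, 1 mean per group, 30 libraries, quasi-likelihood test, two-sided, Benjamini-Hochberg over 18296 genes, threshold 0.05), with DESeq2 1.42.0 as an alternative. The SE is the log2 fold change over the square root of F. Replicates of a group differed beyond counting noise (a chi-square of at least 12.7 for each degree of freedom). The test was also tried on counts simulated from these data.

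Members and gene lists were chosen with earlier results of these data known. Named were up to 4 called members per comparison and direction and 11 fixed ones (CDK1, CCNB1, PLK1, AURKA, BUB1, CENPF, KIF20A, TOP2A, MKI67, UBE2C, FOXM1), and up to 4 called genes per list. Replicate numbers come from the sample titles. Deviations of same-numbered libraries correlated by over 0.1 in every pair in 8 of 17 comparisons. In 5 of these the block changed a call and stands beside the result, and in the other 3 it called 0 members, as did the fit without it. Python 3.11.15 searched the promoters.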

Additional observations from a re-analysis of the deposited data

How the results depend on the processing

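No gene called in the main fit or in an alternative reversed direction between them. Changes of sign in genes called in neither were not counted. Of the tests of single genes under the alternatives, 3220 kept their side of the threshold, 67 passed it newly and 97 no longer passed. These tests followed the 11 fixed members and the called ones. Counts of called genes moved more. With the replicate block as a term, the counts higher against EV were 26 for NES and 13 for WT under R1881 and 11 for NES under vehicle, where 6.23%, 7% and 3.23% of all genes were called higher, against 3.27%, 3.66% and 1.87% without it. The block gave 28 lower for NLS against NES under vehicle (1.77% of all genes, against 0.536% without it) and 1 lower for WT against EV under vehicle (6.72%). For the R1881 response it gave 4 higher in NLS (4.16%), 3 in WT (5.44%) and 1 in NES (7.18%). It gave 4 lower for NLS against EV under vehicle, 1 higher for that pair under R1881 and 2 lower for NLS against NES under R1881. In 9 of the 17 comparisons at least 1 same-numbered pair did not correlate by over 0.1, so there the block was not taken as warranted. That cut does not show the numbers to be without effect. For NES against EV under R1881 the same-numbered pairs correlated by 0.0358 to 0.377, against a mean of -0.12 for pairs of different number. Without the low-count filter, where 36420 genes were tested and 0.486 to 1.95% of them called in the same direction, the counts were 21 (NES) and 6 (WT) higher than EV under R1881, 9 for NES under vehicle, 24 lower for NLS against NES under vehicle, 1 for NLS against EV under R1881, and 1 and 3 higher after R1881 in WT and NLS. DESeq2 gave 4 for NES against EV under vehicle, 1 for NLS against EV under vehicle and 9 for NLS against NES under vehicle (2.23%, 3.7% and 1.16% of the genes with an adjusted p), and RLE factors gave 1 for WT against EV under R1881. Fitting the compared groups alone gave 26 for NES and 6 for WT against EV under R1881 (4.41% and 3.23% of all genes), 0 for NES and 1 lower for WT against EV under vehicle, and 0 for NLS against NES under vehicle. Without the libraries of high mitochondrial share the counts were 3 for NES against EV under vehicle, 0 for NLS against NES under vehicle and 2 for NLS against EV under R1881. Without the libraries numbered 2, a choice made after seeing the data, they were 6 for NES and 1 for NLS against EV under R1881, 0 for NLS against NES under vehicle and 1 for the R1881 response in WT. The cause of these shifts was not tested. Leaving out each replicate in turn gave ranges of 2 to 10 for NES and 0 to 2 for WT against EV under R1881, 0 to 3 for NES against EV and 0 to 1 for NLS against EV under vehicle, 0 to 4 for NLS against NES under vehicle and 0 to 2 for the R1881 response in WT. With 3 libraries a group, SEs in NES against EV under R1881 were 0.20 to 0.63 on the log2 scale, and a log2 fold change as large as that of CENPA (1.24 ± 0.39) did not pass.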
